A study of Sus scrofa with 2 samples.

Results

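Pig chromosome 6 was described along its length from array-based comparative genomic hybridization, in which the DNA of a tissue and reference DNA carry different dyes and compete for probes of known position. Its members were the probes that are not controls and whose position in the array design lies on chromosome 6, which gave 10238 of 177433 probes placed on X or the 18 autosomes. All 10238 also carry chromosome 6 in their probe name. The study treated pigs with diethylnitrosamine (DENA), a carcinogen activated in the liver, to induce hepatic angiosarcoma, a malignant tumor of the vessel lining. 1 array held angiosarcoma-like liver tumor, which came from an animal given a single intraperitoneal dose of 200 mg/kg DENA, and the series' design text places the resection 10 months later. It stands for 1 tumor of 1 animal. The other array held non-tumor control liver tissue, for which the labels do not state whether the animal had received DENA. Both tissues and both references came from female pigs, the methods call the control livers age-matched, and the share of tumor cells in the dissected tissue is not given. The DNA came from paraffin-embedded tissue that was micro-dissected, Cy3 marked the tissue and Cy5 the reference liver, and the labels do not say whether both arrays carried the same reference DNA.

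Pig chromosome 6 is a large chromosome with 2 arms and carries, among many other genes, RYR1, the calcium channel gene in which a mutation causes malignant hyperthermia in pigs. In tumors, whole arms or parts of a chromosome can be lost or gained, and the log2 ratio of tissue over reference then falls or rises over the whole stretch. A loss of 1 of 2 copies in every cell would give a log2 ratio of -1 and a gain of 1 copy on 2 would give 0.58, and normal cells in the dissected tissue bring both values closer to 0. The arrays cannot tell apart a change carried by some of the cells from a smaller change carried by more of them.

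There was 1 array per tissue, so no test between the tissues was possible and no p-value is given. The precision is limited by the number of arrays, and because both were hybridised on separate slides, slide and tissue cannot be told apart. Chromosome 6 probes of 45 bases ran from position 1 to 123291445 in the coordinates of the array design (no genome build is named for them), with a median distance of 10175 bp between the starts of neighbouring probes. The widest distance between starts, 226625 bp, lay between probes that end at 74473645 and start at 74700226. The median over chromosomes 1 to 18 was set to 0 on either array, and 1 chromosome 6 spot with an outlier flag was dropped from the tumor array and 0 from the control array. The medians of 124 windows of 1 Mb rested on 24 to 104 probes each. When the probes of a window were split into odd and even ones, the difference between both medians gave an error of a window median of 0.0461 on the tumor array and 0.0446 in the control tissue, which covers noise within an array and not the spread between animals.

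On the tumor array, chromosome 6 had its lowest window at its first end, and its windows from 1 to 3000000 lay at or below -0.25. So did those of the longer stretch from 36000001 to 49000000, and those from 98000001 to 101000000 lay at or above 0.25. Windows below or above the autosomal median reached well beyond these stretches. The median log2 ratio was -0.11 over 10237 probes of the tumor array, with an interquartile range of -0.39 to 0.21 (SD over probes 0.49). For the control tissue the median of 10238 probes was -0.03, with an interquartile range of -0.26 to 0.24 (SD over probes 0.48). In the tumor 59.3% of the probes had a ratio below 0, compared with 53.2% for the control tissue.

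The window medians on the tumor array ranged from -0.50 to 0.32 with a median of -0.09, and their SD was 0.208. The control medians ranged from -0.24 to 0.20 with a median of -0.02, and their SD was 0.0985. Of the 124 windows, 79 lay below 0 on the tumor array, where 43.9% of all autosomal windows did, and 73 in the control tissue, where 46.2% did. A median of -0.25 or lower was found in 36 windows of the tumor array, or 29.0%, against 12.1% of the autosomal windows. In the control tissue 0 windows reached this size, against 0.326% of the autosomal windows. Under normexp background correction of the raw median signals, however, 49 windows of the tumor array and 32 of the control array did. The autosomal share under normexp is not given, so these 2 counts are not compared with the autosomes. A median of 0.25 or higher was found in 5 windows of the tumor array, a share of 4.03% where the autosomes had 9.46%, and in 0 windows of the control array, where the autosomes had 0.699%. With the processed signals, low windows were thus more frequent on chromosome 6 of the tumor array than over the autosomes, and high windows less frequent. This is a description of 1 array. With the trend on probe brightness removed, as described below, 0 windows were low and 0 high on either array. No window came near the value of -1 for a copy lost in every cell.

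**Figure D1:**
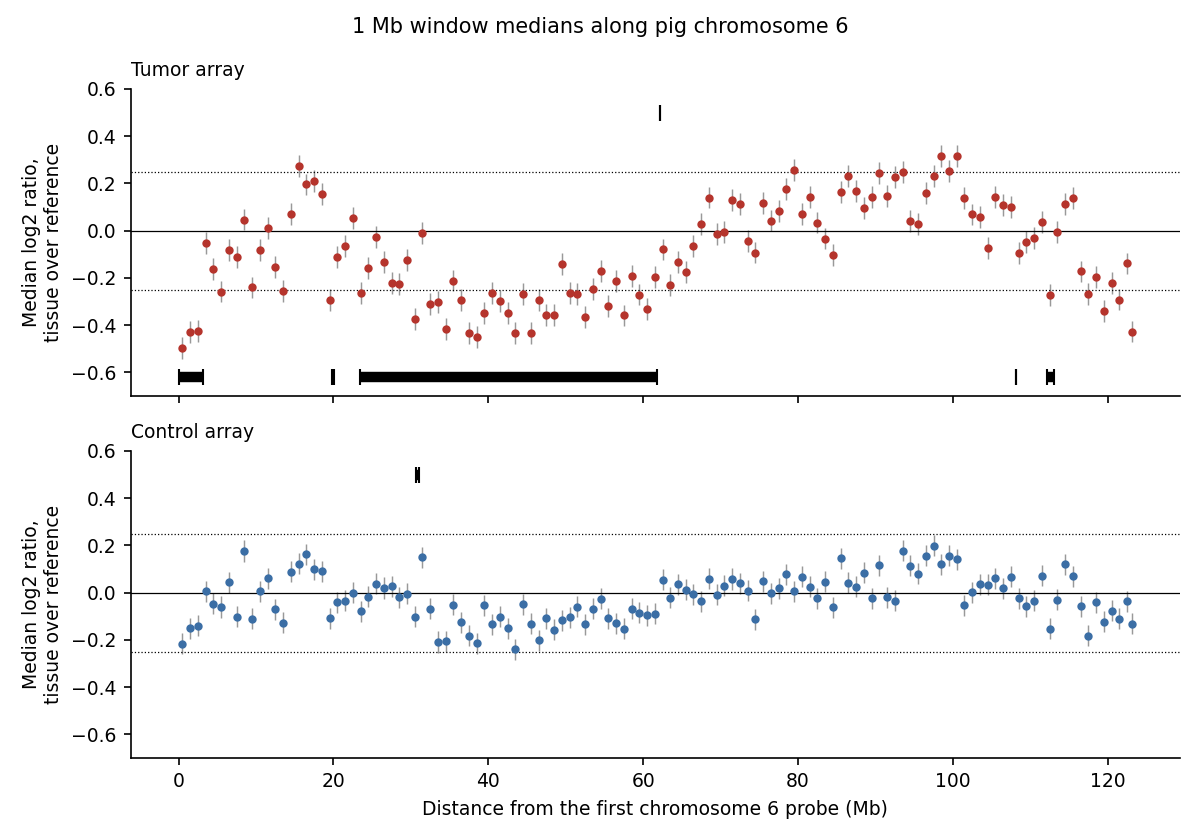
Median log2 ratio of tissue over reference in 1 Mb windows (points) against the distance from the first chromosome 6 probe in Mb, for the tumor array above and the control array below. Grey bars are the error of a window median within the array, 1 value for all windows (0.0461 and 0.0446). Dotted lines mark 0.25 and -0.25, and black bars mark called gains (top) and losses (bottom). On the tumor array 36 windows lie at or below -0.25, most of them in the wide called loss, and in the control tissue 0 do with the processed signals shown.

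The chromosome was also divided into 10 segments of equal length, numbered from its first probe, and the tumor array showed low values in segments 1, 3, 4, 5 and 10. The median was lowest in segment 4, from 36987434 to 49316578, with -0.36 on the tumor array (interquartile range -0.56 to -0.16, 931 probes) and -0.14 in the control tissue (-0.34 to 0.09). In this segment 85.6% of the probes lay below 0 on the tumor array and 66.9% in the control tissue. The neighbouring segment 5 had -0.27 on the tumor array and -0.10 in the control tissue, and segment 3 had -0.21 and -0.04. In segment 1 the medians were -0.20 and -0.05, and in segment 10 they were -0.18 and -0.06. These 5 segments were thus below 0 in the control tissue too, at a smaller size, but for 3 of them this depended on the centre. With the mode as centre, the control medians of segments 1, 3 and 10 were 0.01, 0.02 and 0.00253. The median was highest in segment 8, from 86304012 to 98633156, with 0.18 on the tumor array (-0.12 to 0.47, 1050 probes) and 0.07 in the control tissue (-0.22 to 0.38). Segments 2 and 6 lay near 0, with -0.05 and -0.03 on the tumor array and -0.01 and 0.02 in the control tissue. In each segment the interquartile ranges of both arrays overlapped.

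**Figure D2:**
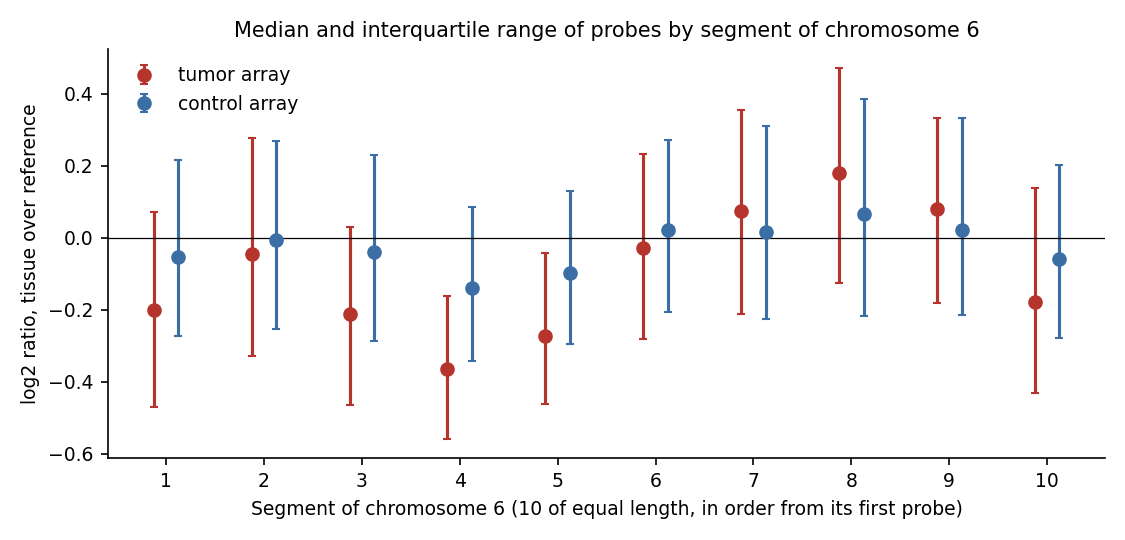
Median (points) and interquartile range (bars) of the log2 ratio of tissue over reference over the probes of each of the 10 equal segments of chromosome 6, for the tumor array (red) and the control array (blue). The tumor array is lowest in segment 4, at -0.36, and highest in segment 8, at 0.18, and the ranges of both arrays overlap in every segment.

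The 5 lowest windows of the tumor array lay at the first end and in segment 4. The window from 1 to 1000000 had a median of -0.50 on the tumor array and -0.22 in the control tissue. The window from 38000001 to 39000000 had -0.45 on the tumor array and -0.22 in the control tissue. The windows from 43000001, 37000001 and 45000001 followed with -0.43 each on the tumor array, and with -0.24, -0.18 and -0.13 in the control tissue. The first 2 of the 5 and the window from 43000001 were also among the 5 lowest of the control array. The others among those 5 started at 33000001 and 34000001, with -0.21 each in the control tissue and with -0.30 and -0.42 on the tumor array.

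The 5 highest windows of the tumor array lay in segments 2, 7 and 9, and at the border of segments 8 and 9. The windows from 98000001 and 100000001 had 0.32 each on the tumor array, with 0.12 and 0.14 in the control tissue. The window from 15000001 had 0.28 and 0.12, the window from 79000001 had 0.26 and 0.01, and the window from 99000001 had 0.25 and 0.16. The highest windows of the control array, from 97000001, 93000001, 8000001, 16000001 and 99000001, had 0.20, 0.18, 0.18, 0.16 and 0.16 there. In the tumor the same windows had 0.23, 0.25, 0.05, 0.20 and 0.25. The window from 8000001 is the one of these 5 that was lower on the tumor array than in the control tissue by more than the error of a window median.

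Runs of at least 3 neighbouring windows at or below -0.25 were found 4 times on the tumor array. The longest run held 13 windows from 36000001 to 49000000, with medians from -0.45 to -0.27 on the tumor array and from -0.24 to -0.05 in the control tissue. The first end of the chromosome, from 1 to 3000000, held a run of 3 windows with -0.50 to -0.43 on the tumor array and -0.22 to -0.14 in the control tissue. The runs from 32000001 to 35000000 and from 50000001 to 53000000 held 3 windows each, with -0.42 to -0.30 and -0.37 to -0.26 on the tumor array. A single run of high windows was found, 3 windows from 98000001 to 101000000, with 0.25 to 0.32 on the tumor array and 0.12 to 0.16 in the control tissue. Over all 36 low windows of the tumor array, the control medians ran from -0.24 to -0.05 with a median of -0.13, and over the 5 high windows from 0.01 to 0.16.

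Neighbouring windows could differ by several times their error. The largest step between neighbouring windows of the tumor array, 0.449, lay at 19000001, where the median fell from 0.16 to -0.29, and the control array fell there from 0.09 to -0.11. The largest step in the control tissue, 0.286, lay at 9000001, where the median fell from 0.18 to -0.11. Across the windows of the tumor array, the correlation between windows 1 apart was 0.74 (123 pairs), 10 apart 0.48 (114 pairs) and 20 apart 0.10 (104 pairs). For the control array these values were 0.48, 0.37 and -0.02. They describe how far along the chromosome values stayed alike, in windows of 1 array on 1 slide.

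Gains and losses were called separately per array with a score like that of Agilent's ADM-1 method, in which the summed log2 ratio of a stretch is divided by the square root of its probe number and by the noise between neighbouring probes (0.401 for the tumor, 0.422 for the control). Calls needed a score of 6 or more, 3 or more probes and a mean that was 0.25 or more in size. On chromosome 6 of the tumor array, 5 losses and 1 gain were called over 42.8 Mb, which is 34.7% of the chromosome, against 7.44% of the autosomal length. In the control tissue 1 gain over 0.373 Mb was called, which is 0.302% of the chromosome, against 0.166% of the autosomal length. The called length on the tumor array was not stable over all settings. With another caller, circular binary segmentation, it was 31.7 Mb in 8 intervals, 6 of them losses. It was 44.8 Mb with probes well above background on both arrays, 41.6 Mb with a score of at least 12 and 50.8 Mb when centred without chromosome 6. Other settings changed it more. It was 9.53 Mb with the mode of the autosomal log2 ratios as centre and 6.11 Mb with the deposited log ratio. It was 0.0584 Mb with the control array subtracted probe by probe and the difference centred again on its autosomal median. Under normexp it was 75.3 Mb, and with the trend on probe brightness removed, as described below, 0.0352 Mb. The deposited ratio equals that of the processed signals except for 3.28% of the autosomal probes of the tumor array and 3.47% of the control array, which it lists at 0 and which hold its autosomal median at 0, so that this setting changed the ratio and the centre together. With the centre of the processed signals kept, an alternative chosen after seeing the data, the called length was 9.11 Mb and the mean of the wide called loss described next -0.27. With the mode as centre, the deposited ratio or the control subtracted, long stretches passed the score and missed the limit of 0.25 on the mean. They lay between 1 and 66242070 with the mode (mean -0.24, score 43.8), between 26528076 and 61806695 with the deposited ratio (-0.24, score 33.5) and between 1 and 67214245 with the control subtracted (-0.14, score 23.4).

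The widest called loss started at 23398801 and ended at 61806695. Its 3084 probes averaged -0.26 on the tumor array (SD 0.40), and its 3085 probes averaged -0.06 in the control tissue (SD 0.40). The mean of the same probes of the tumor array was -0.31 with the mode as centre, -0.23 with the deposited ratio and -0.38 under normexp. The control mean was -0.00027, -0.06 and -0.25 under these settings. Tumor minus control per probe, centred again on its own autosomal median, averaged -0.18 (SD over 3084 probes 0.41). With the trend on probe brightness removed, as described below, the mean of the interval was -0.0063 on the tumor array and 0.03 in the control tissue. Before this removal, 78.6% of its probes were below 0 in the tumor and 61.2% in the control tissue. The 37 windows wholly inside it had medians from -0.45 to -0.01 on the tumor array with a median of -0.29, and 24 of them were at or below -0.25. In the control tissue the same windows had medians from -0.24 to 0.15 with a median of -0.10. In the 85 windows wholly outside, the medians ran from -0.50 to 0.32 on the tumor array and from -0.22 to 0.20 in the control tissue, so the values inside and outside overlapped on both arrays. The interval was not even, as the window from 31000001 had -0.01 on the tumor array and 0.15 in the control tissue, between windows of -0.37 and -0.31 on the tumor array.

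Over the 50 probes on either side of its first boundary, the mean fell from -0.02 (SD 0.38) to -0.34 (SD 0.33) on the tumor array, and from 0.06 (SD 0.45) to -0.09 (SD 0.29) in the control tissue. Over the 50 probes on either side of its last boundary, the mean rose from -0.23 (SD 0.28) to 0.11 (SD 0.63) on the tumor array and from -0.11 (SD 0.21) to 0.21 (SD 0.49) in the control tissue. Steps in the same places were thus present on both arrays, and the boundaries were themselves chosen from the tumor values.

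A further loss covered the first end of the chromosome up to 3162620. Its 292 probes averaged -0.44 (SD 0.32) in the tumor and -0.12 in the control tissue, and 91.8% and 68.8% of them were below 0. A loss of 26 probes between 19774651 and 20049420 averaged -0.55 (SD 0.31), with single probes from -1.43 to 0.05, and a mean of -0.16 in the control tissue (SD 0.40), with single probes from -0.77 to 1.04. A loss of 73 probes from 112150701 to 113081295 had a mean of -0.34 on the tumor array (SD 0.37) and of -0.20 in the control tissue. The means of these 3 losses were below 0 on both arrays and lower on the tumor array. The latter is a description only, since these losses were called from low values of the tumor array.

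The remaining called intervals of the tumor array rested on 3 probes each. The gain from 62188676 to 62223870 had single log2 ratios of 1.16, 0.56 and 3.09 on the tumor array, and of 1.31, 0.70 and 0.03 in the control tissue. The largest of these, 3.09, came from a reference signal of 26.6 that was not well above background, against a tissue signal of 233. The loss from 108141751 to 108164920 had -1.48, -1.83 and -0.99 on the tumor array and -1.22, -0.28 and 0.21 in the control tissue. In it 0 of 3 tissue signals were well above background on either array. Each of these narrow intervals thus held signals that were not well above background.

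The 1 gain called in the control tissue, from 30668376 to 31041195, averaged 0.54 there (SD over 30 probes 0.69) and -0.01 on the tumor array (SD 0.59). Its single probes ran from -0.23 to 2.84 with a median of 0.41 in the control tissue, and from -1.13 to 1.05 with a median of 0.04 on the tumor array. Of its 30 tissue signals 26 were well above background in the control tissue and 24 on the tumor array. The ranges of the probes overlapped between the arrays.

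A stretch at the last end of the chromosome, from 116297476 to 123268320, passed the score on the tumor array at 14.2, but its mean of -0.24 (SD over 544 probes 0.43) just missed the limit in size, so that it was not called. These probes averaged -0.09 in the control tissue. Gains that passed the score and not the limit covered 2135 probes between 77515926 and 102717595, which averaged 0.14 (SD 0.52), and 398 probes between 14548401 and 18859870, which averaged 0.17 (SD 0.53). The control array had 0.10 in both. Losses of this kind covered 898 probes between 4367851 and 14193245, which averaged -0.13 (SD 0.45), and 242 probes between 62659501 and 66242070, which averaged -0.20 (SD 0.38). In both of these the control mean was not below 0, at 0.0035 each. Stretches that passed the score and missed the limit were also found in the control tissue. A loss of 2330 probes between 32316726 and 61826120 averaged -0.09 there (SD 0.38, score 10.8) and -0.29 in the tumor. A gain of 4491 probes between 61854751 and 116411295 averaged 0.08 (SD 0.53, score 12.2) and 0.06 in the tumor, and a loss of 137 probes between 116537051 and 118147520 averaged -0.23 (SD 0.39) and -0.27. When the limit was applied during the search, 16 intervals over 66.1 Mb were called on the tumor array, of which 10 were losses, and 7 over 7.57 Mb in the control tissue. The additional gains then included 369 probes between 97283176 and 101780570 that averaged 0.26 in the tumor (SD 0.55) and 0.20 in the control tissue. Among the additional control gains, 245 probes between 98106426 and 100987845 averaged 0.26 (SD 0.72), and 0.26 in the tumor as well.

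The tumor array lay below the control array in 82 of the 124 windows, where 48.0% of all autosomal windows did so. The difference of tumor minus control ranged from -0.30 to 0.26 over the windows, with a median of -0.08. Both values depended on the centre. With the mode as centre the median was -0.19, and the tumor array lay lower in 111 windows of chromosome 6 and in 76.7% of the autosomal windows. With the deposited ratio and its own centre the median was -0.05, with 78 windows and 39.9%, and with the centre of the processed signals kept it was -0.08, with 86 windows and 50.7%. Under normexp it was -0.05, with 85 windows and 55.6%. With the processed signals centred on the autosomal median, the difference was -0.25 or lower in 8 of the 124 windows, against 3.82% of the autosomal windows. It was 0.25 or higher in 2 of the 124, against 2.66%. The largest differences below 0, -0.30 each, were those of the windows from 45000001 and 39000001. The windows from 123000001, 2000001 and 1 followed with -0.29, -0.29 and -0.28. The largest differences above 0 were those of the windows from 92000001 and 79000001, with 0.26 and 0.25. In the tumor these 2 windows had 0.23 and 0.26, and in the control tissue -0.03 and 0.01. The tumor array lay below the control array in 37 of the 37 windows wholly inside the wide called loss and in 43 of 85 outside it, which is a description only, since that loss was called from low values of the tumor array.

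The brightness of the probes changed along chromosome 6 together with the log2 ratio. Brightness was taken as the mean log2 signal of the reference channel on the other array, so that it held none of the values of the ratio it was set against. Over the 124 windows it ranged from 7.66 to 11.5 for the reference of the control array. Its Pearson correlation with the window medians of the tumor array was -0.96 (Spearman -0.96), and the tumor array's reference gave -0.84 (Spearman -0.85) with the medians of the control array. These are descriptions across 124 windows that share probes, neighbours and possibly reference DNA. Each of the 36 low windows of the tumor array had a brightness of at least 10.3, and none of the 5 high windows exceeded 8.30. Inside the wide called loss the brightness was 10.6 on average, and over the rest of the chromosome 9.36. The source of this course of brightness, and its part in the low and high windows beyond the values that follow, was not tested.

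Chromosome 6 windows were then set beside windows of the other 17 autosomes with the same brightness. Between 10 and 11 on the log2 scale, 47 windows of chromosome 6 had a median of -0.27 on the tumor array, and 365 windows of the other autosomes had -0.24, with 90% of them between -0.40 and -0.10. At 11 and over, 8 windows of chromosome 6 had -0.43, and 50 others had -0.42. Between 9 and 10 the medians were -0.02 for 41 windows and -0.02 for 794 others, and between 8 and 9 they were 0.16 for 24 windows and 0.17 for 696 others. For the control array the medians between 10 and 11 were -0.08 for 48 windows of chromosome 6 and -0.08 for 402 others. No test of these differences was made.

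**Figure D3:**
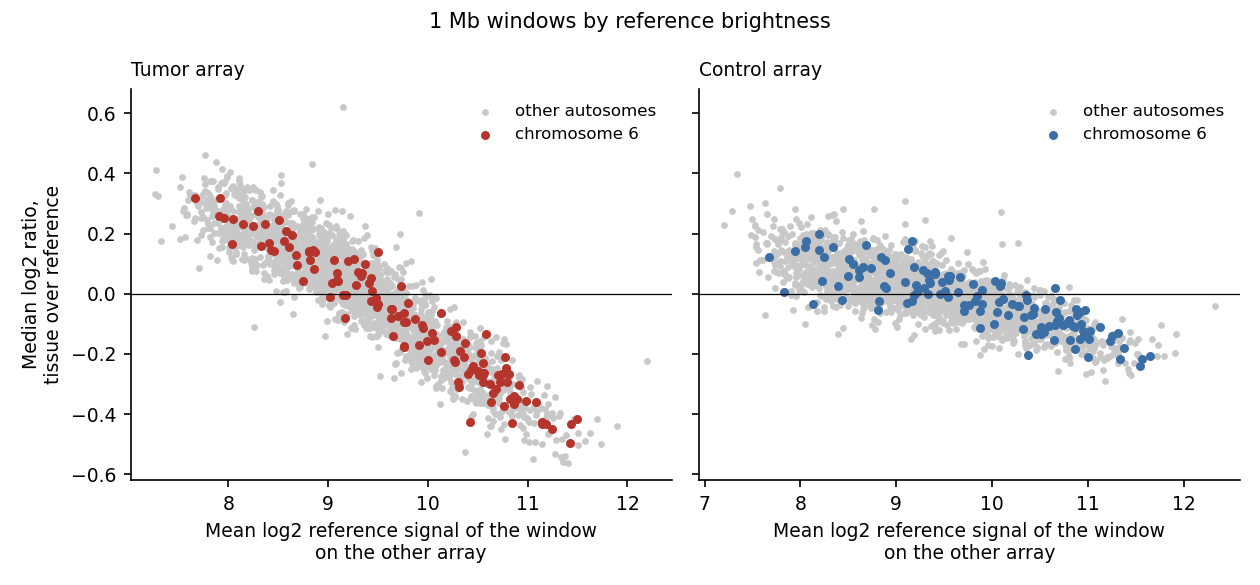
Median log2 ratio of tissue over reference in 1 Mb windows against the mean log2 reference signal of the same window on the other array, for the tumor array (left) and the control array (right). Coloured points are the 124 windows of chromosome 6 and grey points those of the other 17 autosomes, and on both arrays the coloured points lie within the falling band of grey points.

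When the trend of the log2 ratio on local brightness was learned on the other 17 autosomes and removed, the SD of the chromosome 6 windows was 0.0568 on the tumor array and 0.0550 in the control tissue, close to the error of a window median. On the tumor array 0 windows of chromosome 6 were then at or below -0.25 and 0 at or above 0.25. The mean of the wide called loss was then -0.01 on the tumor array and 0.03 in the control tissue. The medians of segments 4 and 8 were then -0.03 and -0.00137 on the tumor array. The chromosome median was then -0.01 on the tumor array and 0.00 in the control tissue. The median difference of tumor minus control over the windows was then -0.0039. With this setting the tumor array kept a single call on chromosome 6, the gain of 3 probes from 62188676, and 0 in the control tissue. The loss of 292 probes at the first end had a mean of -0.08 with the trend removed, and the loss of 26 probes from 19774651 had -0.19. The loss of 3 probes from 108141751 was no longer called, although its mean was -1.32 with the trend removed and -1.43 before. The gain of 30 probes in the control tissue was not called either, although its mean was 0.52 with the trend removed and 0.54 before, and it lay within a stretch from 4692526 to 116411295 that averaged 0.04 and missed the limit.

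Some windows stood away from 0 with the trend removed, and these were chosen after their values were seen. The last window, from 123000001 to 123291445 with 24 probes, had -0.23 on the tumor array and -0.07 in the control tissue. It held the fewest probes of all windows, so the error of 0.0461, taken over all windows, may be too small for it. Next on the tumor array were the windows from 10000001 and 46000001 with -0.13 each, and in the control tissue the latter had -0.12. The highest values of the tumor array were 0.15 in the window from 68000001 and 0.13 in the window from 49000001. On the control array the window from 8000001 kept 0.16 where the tumor array had -0.01, and over the gain of 30 probes from 30668376 the tumor array had a mean of -0.05.

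**Figure D4:**
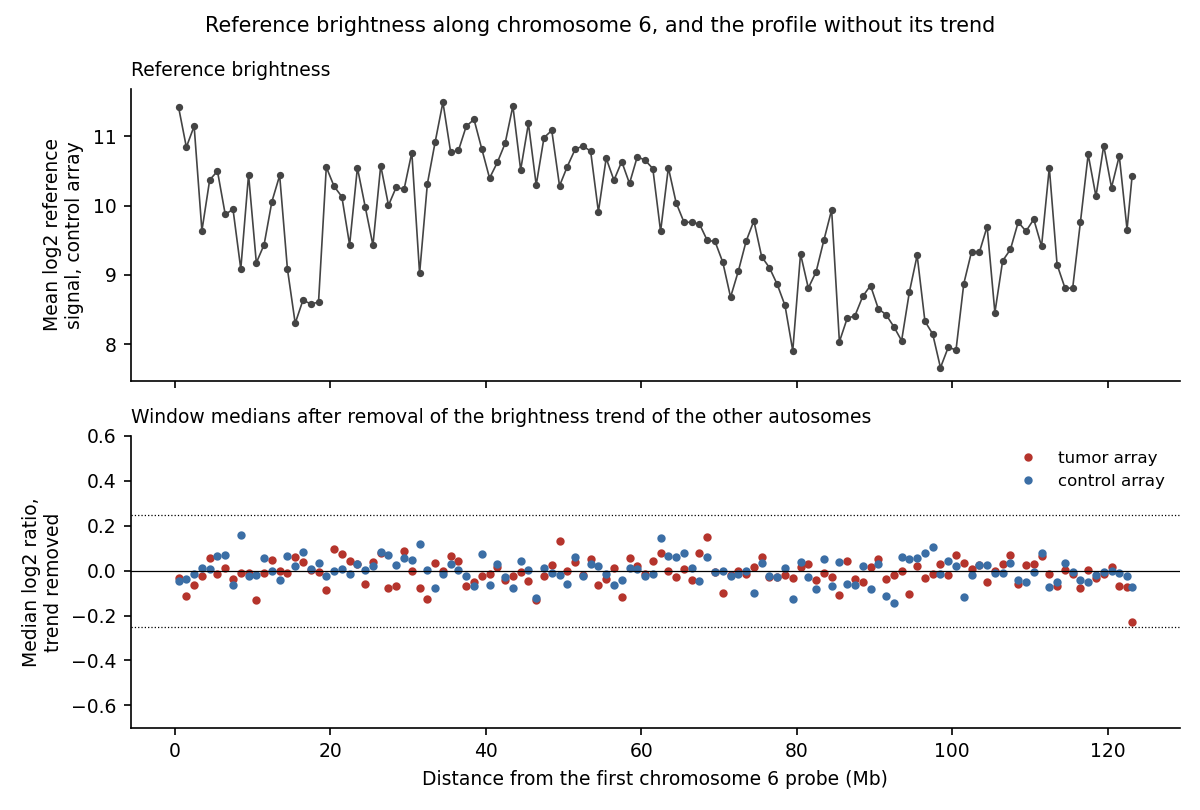
Mean log2 reference signal of the control array in 1 Mb windows of chromosome 6 (above) and window medians of both arrays with the brightness trend of the other 17 autosomes removed (below), against the distance from the first chromosome 6 probe in Mb. Brightness is high where the tumor profile is low, and with the trend removed 0 windows lie beyond the dotted lines at 0.25 and -0.25, the last window of the tumor array being lowest at -0.23.

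Detection followed the same course. Tissue signals were well above background for 84.3% of the chromosome 6 probes on the tumor array and for 82.1% in the control tissue, and reference signals for 91.5% and 89.3%. In segment 4, 6.02% of the tissue signals on the tumor array were not well above background, and in segment 8 this was 31.5%. On chromosome 6 of the tumor array 148 probes had neither signal above background and their median log2 ratio was 0.89. The control array had 151 such probes with a median of 0.91. With the probes well above background in both channels on both arrays, the tumor array had 33 low windows and the wide called loss had a mean of -0.25 on the tumor array.

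Single probes at or below -1 numbered 274 on the tumor array, or 2.68% of the chromosome, where all autosomal probes had 3.03%. The control array had 155, or 1.51%, where the autosomes had 2.0%. Probes at or above 1 numbered 154 of 10237 on the tumor array, where the autosomes had 2.0%, and 281 in the control tissue, or 2.74%, where the autosomes had 3.56%. Of the 274 low probes of the tumor array, 215, or 78.5%, were not well above background in at least 1 channel of either array. Over all autosomes this held for 4363 of 5091 low probes, or 85.7%. Single extreme probes were thus not more frequent on chromosome 6 than over the autosomes.

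Among the 18 autosomes, chromosome 6 had the second lowest median on the tumor array, after chromosome 12 with -0.23, and the third lowest in the control tissue. By the share of windows at or below -0.25 on the tumor array it was also second, with 29.0%, after chromosome 12 with 29 of 58 windows. Chromosome 3 was next with 19.4%, and chromosomes 7 and 14 had 18.2% and 10.7%. By the SD of windows on the tumor array it was second as well, after chromosome 2, and chromosomes 7, 12 and 14 had 0.200, 0.193 and 0.174. Chromosomes of 1 array are not replicates, so these ranks are descriptions with no test. The median log2 reference signal placed chromosome 6 second too, with 9.78 on the tumor array and 9.76 in the control tissue, after chromosome 12 with 10.2 and 10.1. Chromosomes 7 and 14 had 9.65 each on the tumor array, and all autosomes together 9.36. On both arrays the 2 autosomes with the brightest reference signal were chromosomes 12 and 6.

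**Figure D5:**
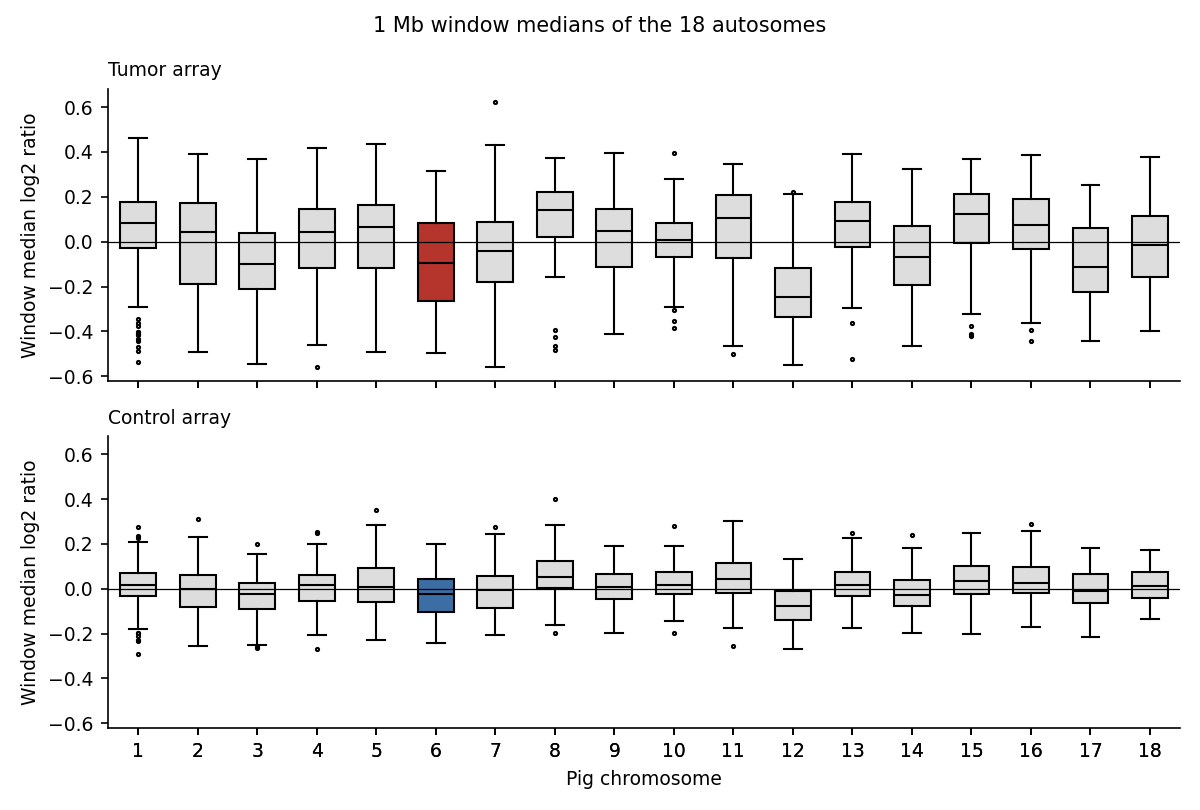
Medians of 1 Mb windows, log2 ratio of tissue over reference, by pig chromosome for the tumor array (above) and the control array (below). Boxes span the interquartile range with the median as a line, whiskers reach 1.5 times that range and points lie beyond, and chromosome 6 is coloured. On the tumor array its windows run from -0.50 to 0.32 and in the control tissue from -0.24 to 0.20.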

How the data were processed

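Tissue and reference liver DNA were hybridised together by the authors, and scanner output came from Agilent Feature Extraction 11.0.1.1. The processed signals deposited are intensity values after background subtraction and linear dye scaling, and raw median signals were deposited too. The deposited log10 ratio is that of red over green, and the series table equals it. The paper and the series' design text name different array formats. With no genome of the design's build at hand, no sequence or gene is given.

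Log2 ratios of green over red were taken from the processed signals, without control and outlier-flagged spots, and the autosomal median was subtracted. Window medians needed 5 probes. The brightness trend was a lowess (fraction 0.3) on the reference signal of the opposite array, averaged within 250 kb. The interval search was also run on simulated data, for which no outcome is given here. Alternatives changed the centre, signals (normexp with offset 50), filters, windows, limits and caller. Named windows, each with 20 or more probes, were the 5 lowest and highest per array and for the difference, besides runs of 3 or more and called intervals. The members and lists were chosen with earlier results of these data known.

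Software was R 4.3.3 (limma 3.58.1) and Python 3.11.15 (scipy 1.17.1, numpy 2.4.6, statsmodels 0.14.6, pandas 2.3.3, matplotlib 3.10.9, numba 0.67.0).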

Additional observations from a re-analysis of the deposited data

How the results depend on the processing

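With 1 array per tissue, no setting could leave out a replicate. No paired analysis was possible because each group holds 1 array. A level was taken as moved when it changed by at least 0.1 on the log2 scale, and a count, length or SD when it changed by more than 1.5 times. Of 402 values under alternatives, 313 stayed within these limits, 89 moved and 0 turned a called value to the opposite sign. These counts do not measure stability, since the series table repeats the deposited ratio and some settings could hardly change a value. Over the 10 segments of the chromosome, 12 of 180 values moved, 7 of them with the brightness trend removed. Those 7 were segments 1, 3, 4, 5, 8 and 10 of the tumor array and segment 4 of the control array, and the other 5 moved under normexp. The chromosome medians are themselves about as small as the limit of 0.1, so it says little about them. That of the tumor array was -0.0060 with the brightness trend removed, against -0.11, and that of the control array was 0.03 with the mode as centre, against -0.03. Centring without chromosome 6, keeping outlier-flagged spots and requiring 20 probes a window moved none of the values that describe the whole chromosome. The last of these could move nothing, because the smallest window held 24 probes. Keeping flagged spots could hardly do so, because the flags covered 1 tumor spot and 0 control spots of chromosome 6. Neither setting thus shows that the values are stable.

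Removing the brightness trend gave a mean of -0.0063 for the wide interval of the tumor array, window SDs of 0.0568 and 0.0550, 0 low and 0 high windows of the tumor array, and 1 called interval over 0.0352 Mb against 0 intervals over 0 Mb on the control array. A single setting of this trend was tried. Normexp on median signals gave means of -0.38 and -0.25 for the wide interval, a control SD of 0.179, 1 high window on each array, 32 low control windows, 75.3 Mb called on the tumor array and 2 control intervals over 1.48 Mb. Centring on the mode gave 2 high tumor windows, 1 high control window, a median difference of -0.19 over windows and 9.53 Mb called on the tumor array, although the mean of the wide interval was -0.31 and 44 windows were low, because a merged loss from 1 to 66242070 averaged -0.24 and missed the limit. The deposited log ratio gave 1 high tumor window, 6.11 Mb called on the tumor array and 2 control intervals over 0.661 Mb, and the series table the same. Its probes listed at 0 also shift its centre. With the centre of the processed signals kept, an alternative chosen after seeing the data, it gave 0 high tumor windows, 9.11 Mb called on the tumor array and 2 control intervals over 0.661 Mb. Probes well above background gave 9 high tumor windows and 0 control intervals over 0 Mb.

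Windows of 0.5 Mb gave 67 low and 12 high tumor windows and 4 low control windows, and windows of 5 Mb gave 7 low and 0 high tumor windows. Window means gave 3 high tumor windows and 2 high control windows. A limit of 0.1 gave 61 low and 29 high tumor windows, with 33 and 14 on the control array, and a limit of 0.4 gave 9 low and 0 high tumor windows.

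Subtracting the control array, with the difference centred again on its autosomal median, gave 3 intervals over 0.0584 Mb. A mean of -0.18 was left in the wide interval. A score of at least 12 gave 2 tumor intervals over 41.6 Mb and 0 control intervals over 0 Mb. A mean of at least 0.1 gave 11 tumor intervals over 92.7 Mb and 2 control intervals over 1.98 Mb, and a mean of at least 0.4 gave 3.50 Mb on the tumor array. The limit applied during the search gave 16 tumor intervals over 66.1 Mb and 7 control intervals over 7.57 Mb. Circular binary segmentation gave 8 tumor intervals over 31.7 Mb and 4 control intervals over 1.09 Mb. Other window sizes, limits and scores change these numbers by construction, and for the other settings the cause was not tested. Tissue signals of the tumor array were well above background for 84.3% of the probes, and the others limit what single probes can show.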
